A study of Mus musculus with 18 samples.

Results

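Matrix mineralization depends on enzymes and transporters that set the balance of phosphate and pyrophosphate around the cell, and 8 of their genes are described here among the 43346 genes of the expression table. They are Phospho1, Smpd3, Alpl, Slc20a1, Slc20a2 and Phex, which favour mineral deposition, and Enpp1 and Ank, which act against it. The genes were chosen by name, and all 8 symbols were found once in the table. Positions are those of the table, in mm10. RNA was measured in MC3T3-E1 subclone 4 cells, a pre-osteoblast line from the calvaria of C57BL/6 mice, at passage 9. The EPZ6438 arm was given 2.5 µM of EPZ6438, which blocks the methyltransferase EZH2, and the DMSO arm 0.25% DMSO, and each gave 3 RNA libraries on day 3. Both arms grew in osteogenic medium with 50 µg/ml ascorbic acid and 10 mM β-glycerol phosphate, an organic phosphate. The labels do not say whether DMSO was present in the EPZ6438 arm too. EZH2 writes the repressive histone mark H3K27me3. This mark and H3K4me3, found at the starts of active or poised genes, were each mapped by chromatin immunoprecipitation in 2 samples per arm, and for each combination of mark and arm 1 list of peaks from the merged samples was used. The cells are a single subcloned line, and nothing in the labels says that the libraries came from separate cultures. The p-values therefore reflect spread among these libraries alone, which may be technical.

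Osteoblasts start mineral inside matrix vesicles, small membrane sacs that bud from the cell. Smpd3 encodes a neutral sphingomyelinase that splits sphingomyelin into ceramide and phosphocholine, and Phospho1 encodes a phosphatase that releases phosphate from phosphocholine inside the vesicle. Alpl encodes tissue-nonspecific alkaline phosphatase, which breaks down pyrophosphate, an inhibitor of crystal growth, and also frees phosphate from β-glycerol phosphate. Slc20a1 and Slc20a2 encode the sodium-phosphate transporters PiT1 and PiT2. Phex encodes a membrane endopeptidase that degrades acidic peptides which block mineral, and its loss causes X-linked hypophosphatemia. Against these stand Enpp1, which makes pyrophosphate from nucleotides outside the cell, and Ank, a membrane protein that raises pyrophosphate there.

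RNA libraries held 18807156 to 25365513 reads in genes. Osteoblast markers were abundant, with a summed level of 7840 to 9594 RPKM (reads per kilobase of gene, scaled to the library's reads in genes) over 9 genes in the EPZ6438 libraries and 5253 to 7802 RPKM in the DMSO libraries. Of these 9 genes 5 were called higher and 1, Spp1, lower by the test described further on. Over all tested genes 3.80% were called higher and 3.24% lower. Dlx5, Col1a1 and Col1a2 were not called. Most of the summed level in both arms came from Col1a1, Col1a2 and Sparc. The arms overlapped for Col1a1 and Col1a2, while Sparc was called higher. The endothelial genes Cdh5, Kdr and Emcn and the muscle regulators Myod1 and Myog had no read in any library. Summed levels were 3.95 to 5.04 RPKM in EPZ6438 and 3.61 to 4.11 RPKM in DMSO for 6 blood cell markers, with no call among the 3 tested. They were 3.00 to 3.33 RPKM in EPZ6438 and 3.30 to 4.04 RPKM in DMSO for 6 adipocyte markers, with no call for Cebpa, the only gene tested. Endothelial markers summed to 0.269 to 0.617 RPKM in EPZ6438 and 0.175 to 0.328 RPKM in DMSO, and skeletal muscle markers to 1.02 to 1.69 RPKM in EPZ6438 and 0.630 to 0.807 RPKM in DMSO. Only 1 gene of each of these lists was tested, Esam and Acta1, and neither was called. Smooth muscle markers were high through Acta2 (summed level 1625 to 1649 RPKM in EPZ6438, 2157 to 2296 RPKM in DMSO; 1 of 4 tested rose and 1 fell). Among osteocyte markers Sost and Fgf23 had no read, and of 3 tested 1, Pdpn, fell, 1, Mepe, was called higher and Dmp1 was not called. The summed level of osteocyte markers, nearly all of it Pdpn, was 27.003 to 32.2 RPKM in EPZ6438 and 42.9 to 53.3 RPKM in DMSO.

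The starts of 6 of the 8 genes were found in RefSeq's promoter table (GRCm38.p6, the mm10 assembly of the peak lists), and 5 of them are shown because the H3K4me3 peaks described further on divided along them. Each sequence runs 5′ to 3′ on the gene's strand from 250 bases before the start site to 49 bases after it, with CG dinucleotides (CpG) in capitals. The first pair are starts with an H3K4me3 peak within 1 kb in both arms, Phospho1 (chr11:95824250-95824549, plus strand) and Ank (chr15:27466427-27466726, plus strand). The other starts had none in either arm, namely the upstream start of Alpl (chr4:137796335-137796634, minus strand), Enpp1 (chr10:24712110-24712409, minus strand) and Phex (chrX:157415237-157415536, minus strand).
Phospho1: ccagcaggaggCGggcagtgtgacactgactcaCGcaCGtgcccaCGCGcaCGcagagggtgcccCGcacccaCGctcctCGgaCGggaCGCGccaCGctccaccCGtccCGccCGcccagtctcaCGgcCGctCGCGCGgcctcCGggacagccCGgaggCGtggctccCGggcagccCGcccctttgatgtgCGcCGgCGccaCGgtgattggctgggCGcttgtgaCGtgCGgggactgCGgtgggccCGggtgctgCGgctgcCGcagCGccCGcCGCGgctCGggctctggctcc
Ank: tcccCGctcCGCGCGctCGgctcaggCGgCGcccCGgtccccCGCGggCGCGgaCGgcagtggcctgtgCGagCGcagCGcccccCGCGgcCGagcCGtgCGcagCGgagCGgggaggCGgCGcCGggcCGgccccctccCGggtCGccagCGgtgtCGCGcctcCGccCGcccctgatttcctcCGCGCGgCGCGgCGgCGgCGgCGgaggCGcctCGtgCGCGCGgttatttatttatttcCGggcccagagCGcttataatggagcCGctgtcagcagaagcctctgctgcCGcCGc
Alpl: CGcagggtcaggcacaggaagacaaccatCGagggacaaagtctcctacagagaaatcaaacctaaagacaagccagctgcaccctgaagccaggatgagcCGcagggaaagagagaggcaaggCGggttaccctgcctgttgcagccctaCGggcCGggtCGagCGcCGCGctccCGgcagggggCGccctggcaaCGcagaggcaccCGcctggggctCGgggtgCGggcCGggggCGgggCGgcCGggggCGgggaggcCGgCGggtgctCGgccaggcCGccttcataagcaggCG
Enpp1: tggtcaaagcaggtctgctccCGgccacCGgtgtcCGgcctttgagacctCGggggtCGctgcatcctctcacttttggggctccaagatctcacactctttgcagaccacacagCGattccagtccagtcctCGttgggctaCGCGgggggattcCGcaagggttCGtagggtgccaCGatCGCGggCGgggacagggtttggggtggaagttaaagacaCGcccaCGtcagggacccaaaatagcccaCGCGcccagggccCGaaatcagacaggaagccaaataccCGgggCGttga
Phex: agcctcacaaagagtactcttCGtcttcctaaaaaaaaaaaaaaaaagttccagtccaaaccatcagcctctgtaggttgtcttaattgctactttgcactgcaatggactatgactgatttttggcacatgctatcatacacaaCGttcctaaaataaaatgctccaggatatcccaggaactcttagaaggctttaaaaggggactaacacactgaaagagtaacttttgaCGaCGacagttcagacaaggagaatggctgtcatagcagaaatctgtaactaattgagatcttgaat
Phospho1 held 42 CpG in 300 bases and Ank 53, while Alpl held 26, Enpp1 22 and Phex 4. The median over 32851 promoters of the table was 7. The upstream start of Slc20a1, which had H3K4me3 peaks, held 36. The 5 starts shown were picked by their peaks, so these numbers do not test a link with CpG. Of all promoters with 22 to 26 CpG, 70.4% had an H3K4me3 peak within 1 kb in EPZ6438 and 51.5% in DMSO. The core motif of RUNX factors, TGTGGT read on both strands, occurred once in the upstream window of Slc20a1 and once in that of Enpp1 and in none of the other windows of the 6 genes. It occurred in 16.8% of all promoters.

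Of the 6 genes that favour mineral, Phospho1, Smpd3 and Alpl were higher in EPZ6438, and the other 3 did not pass the test. Changes are log2 differences of RPKM + 0.1, EPZ6438 minus DMSO, tested with limma over 14213 genes with at least 10 reads in at least 3 libraries. Genes were called at a Benjamini-Hochberg adjusted p under 0.05, which 3.80% of tested genes met as higher and 3.24% as lower. Of the 7 tested genes 5 had arms that did not overlap, as 26.7% of all tested genes did. The 3 called genes had log2 changes of at least 1, which 1.74% of tested genes had with a call. Since the genes were picked with earlier results of these data known, their share of calls is given beside this background without a test. The median log2 change of the 6 genes was 0.77, against -0.03 over all tested genes.

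Phospho1 (ENSMUSG00000050860, chr11:95824499-95832140), the vesicle phosphatase, was measured at 153, 165 and 174 RPKM in the EPZ6438 libraries and at 24.5, 28.4 and 31.1 RPKM in the DMSO libraries. The lowest EPZ6438 library stood far above the highest DMSO library, a change of 5.85-fold in the means (log2 change 2.55, SE 0.10, limma adjusted p = 8.15e-05). The mean of 164 ± 10.2 RPKM in EPZ6438 (SD, n = 3) lay above that of 99.0% of protein-coding genes, and the mean of 28.0 ± 3.29 RPKM in DMSO above 90.3%. In the table the span of Zfp652, a zinc finger gene, covers all of Phospho1, and the end of Abi3 overlaps it. The sources used here do not say whether counting used strand, so whether reads in overlapping parts of these genes were told apart is unknown. The length used for the RPKM of Phospho1 was 2029 bases, less than its span. Zfp652, singled out after its values were seen, stood at 23.1, 22.6 and 25.2 RPKM in EPZ6438 and at 7.96, 8.58 and 8.45 RPKM in DMSO (log2 change 1.49, SE 0.08, limma adjusted p = 0.000313). Gngt2, which lies within 10 kb of Phospho1 and was likewise singled out, averaged 1.88 ± 0.184 RPKM in EPZ6438 and 0.346 ± 0.0187 RPKM in DMSO (log2 change 2.15, limma adjusted p = 0.000640). Abi3 averaged 0.131 RPKM in EPZ6438 and 0.147 RPKM in DMSO (adjusted p = 0.876).

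Smpd3 (ENSMUSG00000031906, chr8:106252548-106337988), whose product supplies the substrate of Phospho1, was measured at 75.4, 88.6 and 83.9 RPKM in the EPZ6438 libraries and at 9.16, 12.1 and 14.2 RPKM in the DMSO libraries. No EPZ6438 library came near the DMSO range, and the change was 6.97-fold in the means (log2 change 2.81, SE 0.16, limma adjusted p = 0.000313), the 12th highest of the 14213 log2 changes. For both genes DMSO replicate 1, which had the fewest reads of the 6 libraries, was the lowest of its arm, and DMSO replicate 3, which had the most, was the highest. Without DMSO replicate 1 or any other 1 library the log2 change stayed between 2.64 and 2.95 for Smpd3 and between 2.46 and 2.63 for Phospho1.

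Alpl (ENSMUSG00000028766, chr4:137741733-137796384), the alkaline phosphatase gene, was measured at 12.4, 14.2 and 13.6 RPKM in EPZ6438 and at 5.63, 6.35 and 6.14 RPKM in DMSO. The arms were well apart, yet the change of 2.22-fold in the means was smaller in size than those of Phospho1 and Smpd3 (log2 change 1.14, SE 0.10, limma adjusted p = 0.00141). Phospho1 was 12.3 ± 0.586 times the level of Alpl in EPZ6438 and 4.63 ± 0.378 times its level in DMSO (SD, n = 3 each).

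The phosphate transporters were expressed at close levels in both arms. Slc20a1 (ENSMUSG00000027397, chr2:129198764-129211616) was at 21.7, 17.8 and 20.1 RPKM in EPZ6438 and at 20.5, 18.9 and 17.2 RPKM in DMSO, and the ranges overlapped (log2 change 0.07, 95% interval -0.18 to 0.32, limma adjusted p = 0.764). Slc20a2 (ENSMUSG00000037656, chr8:22476700-22569607) was at 11.8, 13.8 and 13.2 RPKM in EPZ6438 and at 9.92, 13.2 and 14.7 RPKM in DMSO, with a DMSO range that enclosed the EPZ6438 one (log2 change 0.05, 95% interval -0.31 to 0.41, limma adjusted p = 0.889). Without DMSO replicate 1 the sign for Slc20a2 turned (log2 change -0.11, adjusted p = 0.626). Slc20a1 stood at 1.55 ± 0.277 times Slc20a2 in EPZ6438 and 1.56 ± 0.458 times in DMSO.

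Phex (ENSMUSG00000057457, chrX:157162075-157415312) was low throughout, at 0.340, 0.481 and 0.50 RPKM in EPZ6438 and at 0.313, 0.308 and 0.288 RPKM in DMSO. Every EPZ6438 value lay above every DMSO value, as for 12.0% of tested genes, but the difference did not pass (log2 change 0.41, 95% interval -0.04 to 0.86, limma adjusted p = 0.282). These levels rest on 45, 73 and 63 reads in EPZ6438 and 37, 43 and 46 reads in DMSO.

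**Figure D1:**
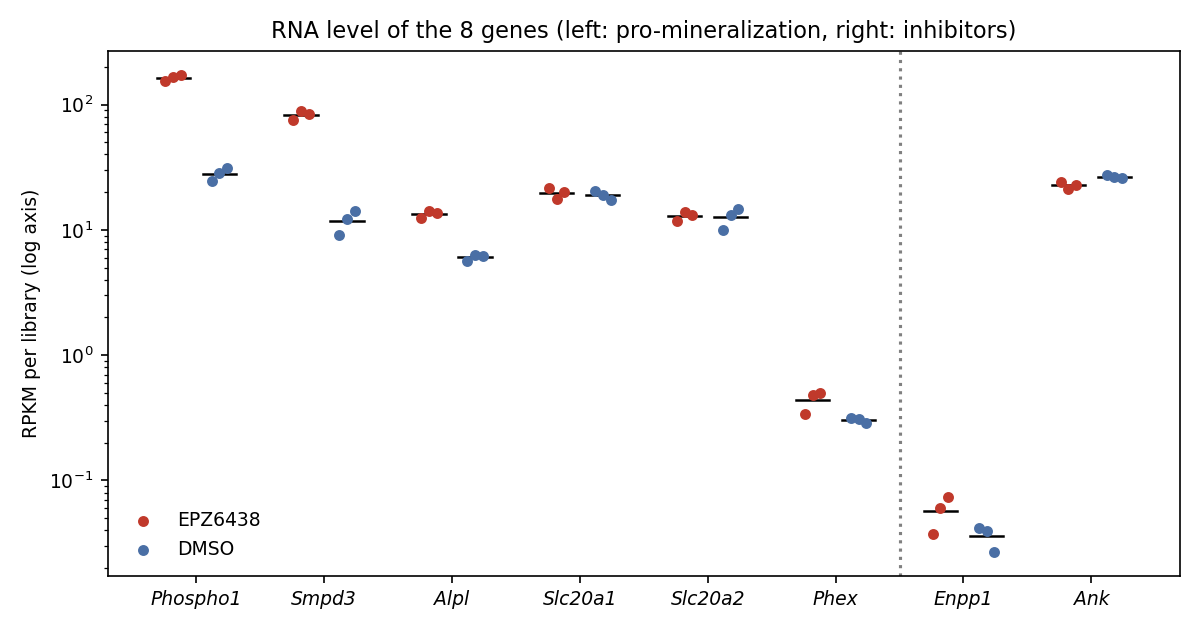
RNA level in RPKM on a log axis for each of the 8 genes, with 1 point per library (3 EPZ6438 libraries left, 3 DMSO libraries right of each gene) and a line at the mean. Phospho1 and Smpd3 sit at 75.4 to 174 RPKM in EPZ6438 and at 9.16 to 31.1 RPKM in DMSO, while Enpp1 stays below 0.1 RPKM in both.

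Neither gene that opposes mineral was called. Ank (ENSMUSG00000022265, chr15:27466677-27594909) was at 24.3, 21.2 and 22.7 RPKM in EPZ6438 and at 27.4, 26.5 and 25.8 RPKM in DMSO. Each EPZ6438 library was below each DMSO library, as for 14.7% of tested genes, and the difference did not pass the test (log2 change -0.23, 95% interval -0.42 to -0.04, limma adjusted p = 0.164). Enpp1 (ENSMUSG00000037370, chr10:24637914-24712159) was close to absent, with 8, 15 and 15 reads in EPZ6438 and 8, 9 and 7 reads in DMSO. These correspond to 0.0371, 0.0606 and 0.0730 RPKM in EPZ6438 and 0.0415, 0.0395 and 0.0269 RPKM in DMSO, where 3 reads, taken as the floor, equal 0.0115 to 0.0156 RPKM. This floor covers counting error only, because PCR copies of a molecule cannot be recognised. Enpp1 did not pass the filter on low counts and was therefore not among the 7 genes tested. With no filter its log2 change was 0.20 (SE 0.17, limma adjusted p = 0.655).

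Smpd3 stood second among the 8 genes in EPZ6438 and lower in the order in DMSO. In EPZ6438 Phospho1 led, followed by Smpd3, then Ank and Slc20a1, whose ranges overlapped, then Alpl and Slc20a2, whose ranges also overlapped, then Phex and Enpp1. In DMSO Phospho1 and Ank overlapped at the top, Slc20a1 followed, Slc20a2 and Smpd3 overlapped, and Alpl, Phex and Enpp1 came last. Summed over the 6 genes that favour mineral, the level was 275, 299.9 and 305 RPKM in EPZ6438 and 70.0, 79.3 and 83.7 RPKM in DMSO. Phospho1 alone made up 55.9% ± 0.962 of that sum in EPZ6438 and 36.0% ± 1.07 in DMSO, while Smpd3 made up 28.2% ± 1.19 in EPZ6438 and 15.1% ± 1.98 in DMSO (SD, n = 3 each). The sum of Enpp1 and Ank, nearly all of it Ank, was 24.3, 21.2 and 22.8 RPKM in EPZ6438 and 27.5, 26.6 and 25.8 RPKM in DMSO. The ratio of these sums was 12.9 ± 1.48 in EPZ6438 and 2.92 ± 0.350 in DMSO (SD, n = 3 each). With geometric means in place of sums it was 14.8 in EPZ6438 and 7.53 in DMSO, and without Slc20a1 and Slc20a2 the sums gave 11.5 in EPZ6438 and 1.74 in DMSO. Geometric means give Enpp1, with 7 to 15 reads per library, the same weight as Ank. The ratio is given without a p because it is a score over chosen genes. Alpl relative to Ank was 0.509, 0.671 and 0.599 in EPZ6438 and 0.205, 0.239 and 0.238 in DMSO.

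**Figure D2:**
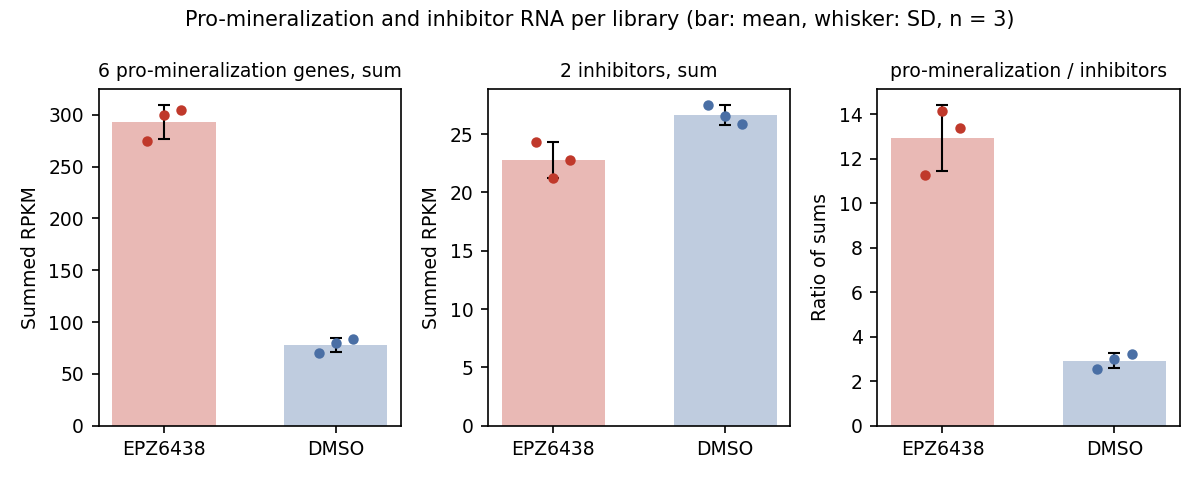
Summed RPKM of the 6 pro-mineralization genes, summed RPKM of Enpp1 and Ank, and their ratio, with 1 point per library, bars at the mean and whiskers of 1 SD (n = 3). The ratio lies between 11.3 and 14.1 in the EPZ6438 libraries and between 2.55 and 3.24 in the DMSO libraries. With geometric means, which weigh the nearly absent Enpp1 the same as Ank, the mean ratios are 14.8 in EPZ6438 and 7.53 in DMSO.

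Over the 7 lists of other genes of the pathway, 42 of 56 genes could be tested, of which 10 rose, 1 fell and 31 did not pass (7.04% of all tested genes were called in either direction). One of the 10, Mepe, met the filter on low counts only through the EPZ6438 libraries, so its direction was fixed in part by the filter. Sphingomyelin enzymes had 2 of 10 members higher and none lower, with a median log2 change of -0.02. Sgms2, a sphingomyelin synthase, was at 21.4, 18.5 and 19.99 RPKM in EPZ6438 and at 6.49, 5.82 and 5.68 RPKM in DMSO (log2 change 1.72, SE 0.10, limma adjusted p = 0.000313). The other synthase gene, Sgms1, averaged 8.81 ± 1.08 RPKM in EPZ6438 and 10.9 ± 1.24 RPKM in DMSO (adjusted p = 0.247), and the sphingomyelinase genes Smpd1, Smpd2 and Smpd4 did not pass either (log2 changes 0.06, -0.09 and 0.01). Smpdl3b, a phosphodiesterase related to acid sphingomyelinase, averaged 30.4 ± 1.58 RPKM in EPZ6438 and 19.9 ± 0.972 RPKM in DMSO (log2 change 0.61, limma adjusted p = 0.00586), and its call ended without EPZ6438 replicate 3 (adjusted p = 0.0517). Among 5 tested pyrophosphate and phosphatase enzymes 1 rose, with a list median of 0.23. It was Nt5e, the ectonucleotidase CD73, at 7.65 ± 0.285 RPKM in EPZ6438 and 4.05 ± 0.788 RPKM in DMSO (log2 change 0.92, limma adjusted p = 0.0133). The call of Nt5e ended without EPZ6438 replicate 1 (adjusted p = 0.0622), 2 (0.0559) or 3 (0.0687) and without DMSO replicate 2 (0.0626). The other alkaline phosphatase genes Alppl2, Alpi and Akp3 had a read in at most 1 library.

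None of 7 tested choline and matrix vesicle genes passed (median log2 change -0.14), and the most abundant, the annexin Anxa2, averaged 361 ± 9.21 RPKM in EPZ6438 and 399 ± 10.6 RPKM in DMSO (limma adjusted p = 0.323). The kidney and gut phosphate transporters Slc34a1, Slc34a2 and Slc34a3 had no read in any library. Of the other phosphate transporters 2 were tested and neither passed (median -0.02), the mitochondrial carrier Slc25a3 averaging 110.1 ± 8.31 RPKM in EPZ6438 and 112 ± 12.0 RPKM in DMSO (adjusted p = 0.939). Among genes of the hormones that control phosphate 2 of 6 tested rose (median 0.36). Pth1r, the receptor of parathyroid hormone, was at 118, 152 and 141 RPKM in EPZ6438 and at 37.4, 52.1 and 59.9 RPKM in DMSO (log2 change 1.48, SE 0.18, limma adjusted p = 0.00461). Galnt3, a glycosyltransferase that protects FGF23 from cleavage, averaged 1.10 ± 0.0700 RPKM in EPZ6438 and 0.182 ± 0.111 RPKM in DMSO (log2 change 2.16, limma adjusted p = 0.00597), while Fgf23 itself had no read. Galnt3 is low in DMSO and its log2 change depended on the pseudocount, at 0.83 with 1 RPKM, 2.69 with 0.01 RPKM and 2.73 with voom. Of 4 tested relatives of Phex 1 rose (median 0.39), the endopeptidase gene Mmel1, at 0.561 ± 0.10 RPKM in EPZ6438 and 0.142 ± 0.0461 RPKM in DMSO (log2 change 1.45, limma adjusted p = 0.0106). Its log2 change likewise was 0.45 with a pseudocount of 1 RPKM and 1.99 with voom. The call of Mmel1 ended with no filter (adjusted p = 0.0552) and without EPZ6438 replicate 1 (0.0540) or 2 (0.0571).

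Of 8 tested genes for mineral-binding matrix proteins 4 rose, Mepe among them, and 1 fell, with a median log2 change of 0.65. Ibsp, which encodes bone sialoprotein, was at 605, 578 and 578 RPKM in EPZ6438 and at 217, 185 and 177 RPKM in DMSO (log2 change 1.61, SE 0.10, limma adjusted p = 0.000361). The osteocalcin genes Bglap (log2 change 1.5, SE 0.14, limma adjusted p = 0.00162) and Bglap2 (1.68, SE 0.18, adjusted p = 0.00295) were higher as well, and their values are uncertain because near-identical copies can share reads. Mepe, which encodes a matrix phosphoglycoprotein cut by proteases into mineral-blocking peptides, averaged 0.363 ± 0.0281 RPKM in EPZ6438 and 0.156 ± 0.0364 RPKM in DMSO (limma adjusted p = 0.0414). It had 12, 16 and 12 reads in EPZ6438 and 6, 6 and 5 reads in DMSO, and no DMSO library reached the 10 reads of the filter. That call ended in 6 of the 11 alternatives that could test Mepe, among them those without DMSO replicate 2 (adjusted p = 0.133) and without DMSO replicate 3 (0.0832). Without EPZ6438 replicate 1, 2 or 3, or with a filter of 50 reads in 3 libraries, Mepe failed the filter and was not tested. Spp1, which encodes osteopontin, an inhibitor of crystal growth, fell to 147, 132 and 128 RPKM in EPZ6438, against 233, 196 and 178 RPKM in DMSO (log2 change -0.57, SE 0.12, limma adjusted p = 0.0316). The call of Spp1 ended with no filter (adjusted p = 0.0775), without EPZ6438 replicate 1 (0.0708), 2 (0.120) or 3 (0.146), and without DMSO replicate 2 (0.122). Mgp, a further inhibitor of calcification, averaged 1163 ± 117 RPKM in EPZ6438 and 1270.2 ± 187 RPKM in DMSO (adjusted p = 0.680).

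**Figure D3:**
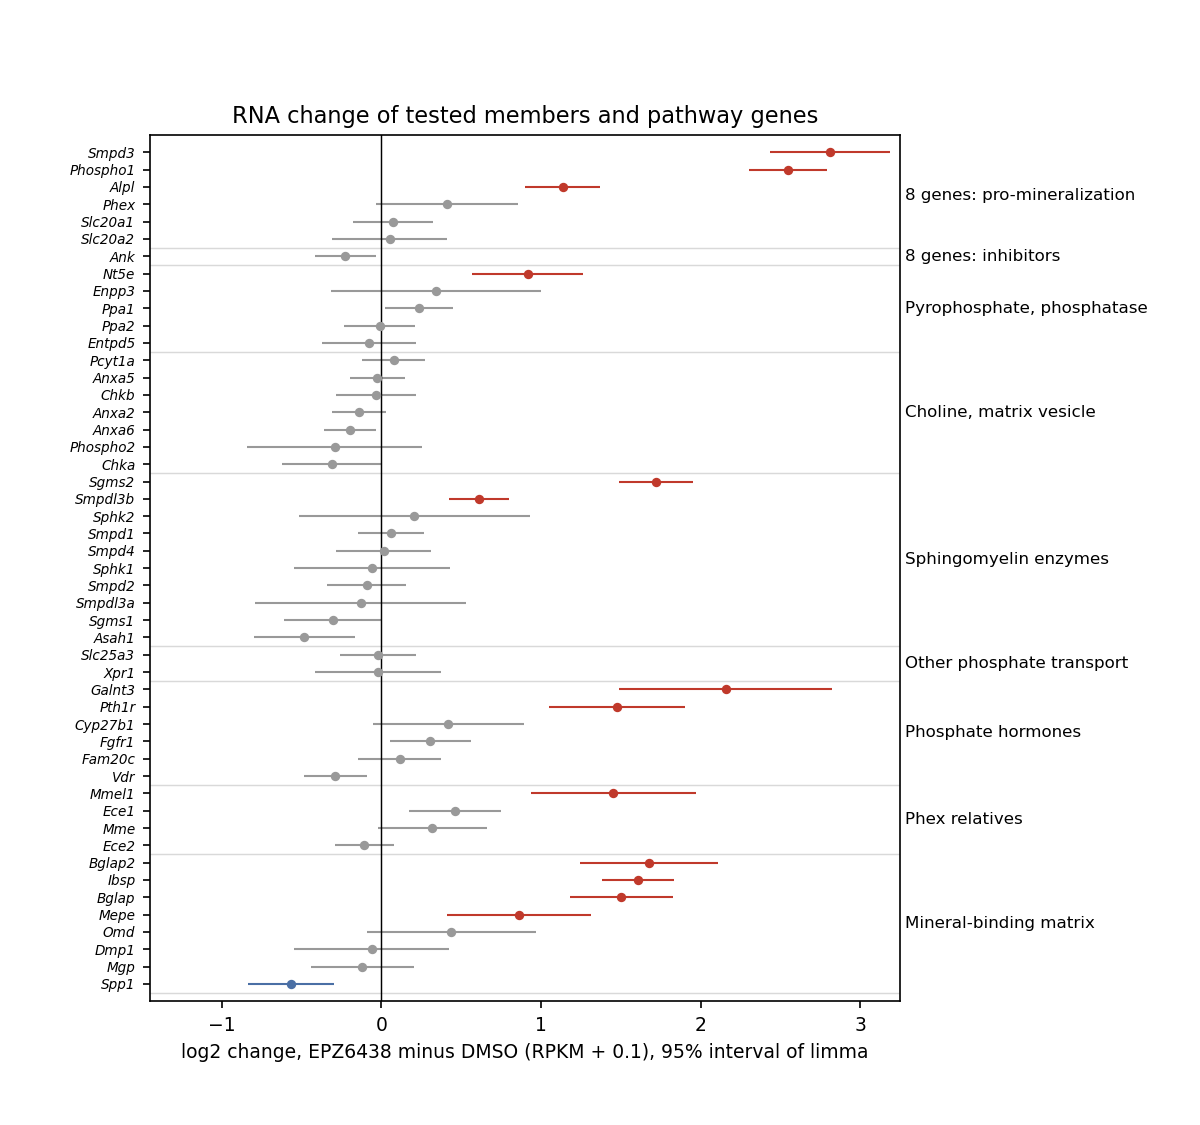
Log2 change of RPKM + 0.1, EPZ6438 minus DMSO, with the 95% interval from limma, for the 7 tested genes of the 8 and the 42 tested genes of 7 other pathway lists. Red marks genes called higher, blue genes called lower and grey genes not called; Smpd3 (2.81) and Phospho1 (2.55) lie far to the right and Spp1 (-0.57) is the called gene on the left.

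Profiles most like those of the most changed genes were sought over the 6 libraries in log2(RPKM + 0.1), each gene taken relative to its DMSO mean. Nearest to Smpd3 were Col2a1, a cartilage collagen (distance 0.346), Steap3, a ferrireductase (0.351), and Phospho1 (0.512). Nearest to Phospho1 were Ramp1, a receptor partner protein (0.277), Car3, a carbonic anhydrase (0.332), and Pdzd2 (0.352). Col2a1 was at 77.6, 107 and 88.4 RPKM in EPZ6438 and at 10.3, 15.0 and 18.4 RPKM in DMSO. Chondrocytes also mineralize their matrix. Of 7 tested chondrocyte markers 5 were called higher and none lower, where 3.80% of all tested genes were called higher and 3.24% lower. Sox9 (log2 change -0.15) and Comp (-0.07) did not pass. One of the 5, Col9a1, met the filter only through the EPZ6438 libraries, with 23, 31 and 16 reads there and 0, 0 and 2 reads in DMSO. The summed level of the 10 listed chondrocyte markers was 98.5 to 133 RPKM in EPZ6438 and 19.96 to 30.9 RPKM in DMSO, with Col2a1 the largest part in both arms. Acan, which encodes aggrecan, had no read in any library and Col10a1 had reads in 1 library only. The part of these markers in the changes of Phospho1, Smpd3 and Alpl was not tested. In bulk RNA, more cells of a kind and more RNA per cell cannot be told apart.

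Over the 8 genes plus 10 kb to each side, the EPZ6438 list held 3 H3K27me3 peaks at 1 gene, and the DMSO list 20 peaks at 5 genes. Among protein-coding genes 21.3% had such a peak in EPZ6438 and 64.1% in DMSO. Of the peaks, 3 in EPZ6438 and 15 in DMSO belonged to Enpp1, and without it the counts were 0 and 5. A peak in DMSO with none in EPZ6438 was found at 4 of the 8, namely Phospho1, Alpl, Phex and Ank, and at 42.9% of protein-coding genes. The whole H3K27me3 list held 20764 peaks in EPZ6438 and 143399 in DMSO. H3K27me3 peaks covered 0.134% of the 8 windows in EPZ6438 and 1.18% in DMSO. This was less than over the windows of all protein-coding genes, at 0.466% in EPZ6438 and 3.40% in DMSO. H3K4me3 peaks numbered 9 in each list, at 5 genes each (51.7% of protein-coding genes had one in EPZ6438 and 61.1% in DMSO), but covered 6595 bp in EPZ6438 and 3263 bp in DMSO. These are 0.759% of the 8 windows in EPZ6438 and 0.375% in DMSO, where the windows of all protein-coding genes were covered to 0.832% in EPZ6438 and 0.630% in DMSO. The whole H3K4me3 list held 16216 peaks with a median width of 401 bp (8.22 Mb) in EPZ6438 and 40113 peaks with a median width of 212 bp (10.4 Mb) in DMSO. Within 1 kb of a gene end, H3K4me3 was found at 5 of the 8 genes in EPZ6438 and at 4 in DMSO (41.3% and 32.5% of protein-coding genes in EPZ6438 and in DMSO). H3K27me3 was found there at none in EPZ6438 and in DMSO at 1, the end of Enpp1 away from its start (3.65% of protein-coding genes in EPZ6438, 17.0% in DMSO). Each of the 8 genes had a peak in at least 1 list, while 13.9% of protein-coding genes had none in any. With 1 merged list per mark and arm these values have no replicate error and no test, and their depth is unknown.

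At Phospho1 both marks lay side by side in DMSO. The EPZ6438 list had no H3K27me3 peak there, and the DMSO list had 1 of 576 bp (chr11:95825865-95826440, inside the gene), which began 1365 bases after the start site. A DMSO H3K4me3 peak of 623 bp (chr11:95825513-95826135) overlapped it. Peaks of both marks that overlap each other were found at none of the 8 genes in EPZ6438 and at 2, Phospho1 and Enpp1, in DMSO (0.363% of protein-coding genes in EPZ6438, 24.0% in DMSO). In EPZ6438 an H3K4me3 peak of 1640 bp (chr11:95824477-95826116) ran from 23 bases before the start site to 1616 bases after it. It overlapped both DMSO peaks of the gene's first 2 kb, of 320 and 623 bp, and a second EPZ6438 peak of 367 bp followed. The window covered by H3K4me3 was 2007 bp in EPZ6438 and 1181 bp in DMSO. The start site within the CpG-dense sequence printed above therefore lay under an H3K4me3 peak in EPZ6438 and 191 bases before the next one in DMSO.

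Smpd3 had no H3K27me3 peak in either arm, although its RNA changed most of the 8. Its H3K4me3 differed between the lists: EPZ6438 had peaks of 878 bp (chr8:106337015-106337892) and 258 bp (chr8:106336543-106336800), and DMSO had none. The wider peak ended 96 bases inside the gene end of higher coordinate. An H3K4me3 peak within 1 kb of a gene end in EPZ6438 with none in DMSO was found at 12.1% of protein-coding genes. The start site of Smpd3 was not used here, so positions are given from the gene ends of the table.

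Alpl had no H3K4me3 peak over the gene or 10 kb around it in either arm, at either of its RefSeq starts, though its RNA was measured at 13.4 ± 0.934 RPKM in EPZ6438 and 6.04 ± 0.370 RPKM in DMSO. The EPZ6438 list had no H3K27me3 peak there, and the DMSO list had 1 of 168 bp that lay 9190 bases before the upstream start. Phex likewise had no H3K4me3 peak in either arm. Its H3K27me3 peaks, none in EPZ6438 and 2 in DMSO (259 and 512 bp), began 92571 and 94936 bases after the start site.

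The transporters carried H3K4me3 at a gene end in both arms and no H3K27me3 peak in either. At Slc20a1 the peak next to the start site was 906 bp wide in EPZ6438 and 632 bp in DMSO, and a further peak of 404 bp before the start was found in EPZ6438 only. A noncoding transcript of the table, RP23-160G19.10, overlaps this start. At the lower-coordinate end of Slc20a2, which overlaps the end of Smim19, a single peak of 1124 bp in EPZ6438 stood over DMSO peaks of 441 and 290 bp. These peaks cannot be assigned to 1 gene of each pair.

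Enpp1 held most of the H3K27me3 peaks. They numbered 3 in EPZ6438 and 15 in DMSO and covered 1162 bp, or 1.23% of the window, in EPZ6438 and 8002 bp, or 8.49%, in DMSO. Over the windows of all protein-coding genes 0.466% was covered in EPZ6438 and 3.40% in DMSO. At least as many DMSO peaks were found at 5.17% of protein-coding genes, and at least as large a covered share at 17.1%. The DMSO peaks were spread over 88593 bp with gaps of 813 to 16009 bp, the widest being 1385 bp (chr10:24649683-24651067), and none lay within 1 kb of the start site. All 3 EPZ6438 peaks, of 188, 423 and 551 bp, overlapped a DMSO peak and lay inside the gene. The RNA of Enpp1 was at 8 to 15 reads per library in EPZ6438 and 7 to 9 in DMSO, and was not tested after the filter.

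Ank kept H3K4me3 at its start in both arms. Peaks of 617 and 401 bp in EPZ6438 overlapped peaks of 251 and 290 bp in DMSO, and the first began 39 bases after the start site in each list. The EPZ6438 list had no H3K27me3 peak at Ank, and the DMSO list had 1 of 709 bp that ended 2806 bases before the start. The genes with H3K4me3 within 1 kb of a known start, Phospho1, Slc20a1 and Ank, had 36 to 53 CpG there, and those without, Alpl, Phex and Enpp1, had 4 to 26. Over all promoters of the table with at least 36 CpG, 78.6% had an H3K4me3 peak within 1 kb in EPZ6438 and 66.7% in DMSO. With 22 to 26 CpG, the range that holds Enpp1 and the upstream start of Alpl, the shares were 70.4% in EPZ6438 and 51.5% in DMSO, and with at most 4 CpG, as at Phex, 2.20% in EPZ6438 and 3.10% in DMSO. These limits were chosen after the CpG numbers of the 6 genes were seen.

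**Figure D4:**
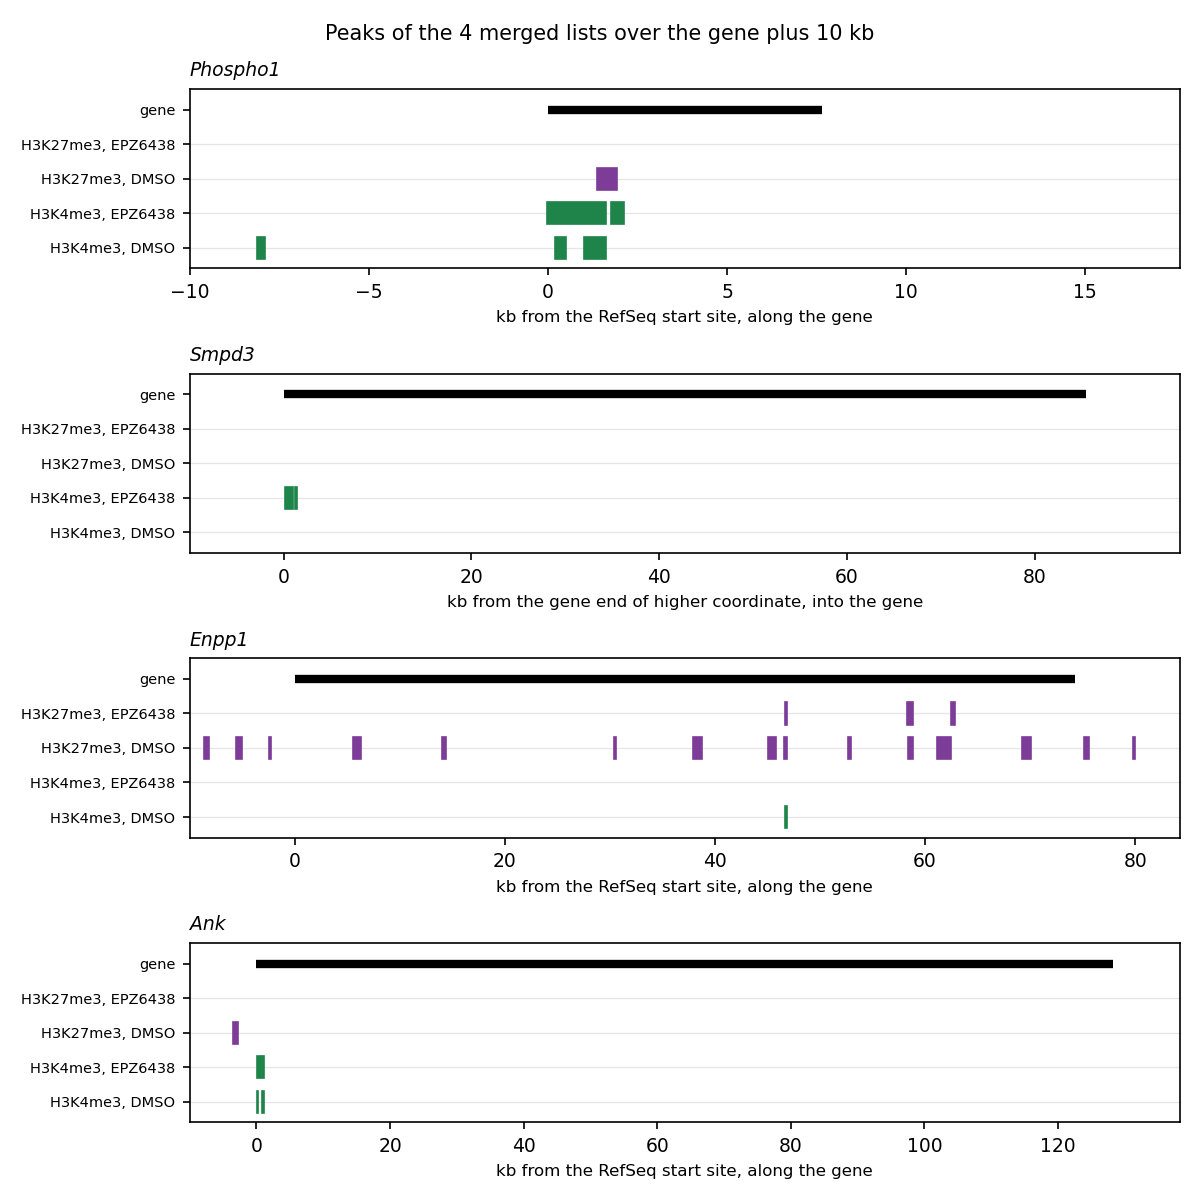
Peaks of the 4 merged lists over Phospho1, Smpd3, Enpp1 and Ank plus 10 kb, with distance in kb from the RefSeq start site (for Smpd3 from the gene end of higher coordinate) and 1 row per mark and arm under a bar for the gene. H3K27me3 peaks number 0, 0, 3 and 0 in EPZ6438 and 1, 0, 15 and 1 in DMSO for the genes from top to bottom, and H3K4me3 at Smpd3 appears in the EPZ6438 row alone.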

How the data were processed

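RNA of 3 EPZ6438 and 3 DMSO libraries and 4 merged peak lists were used. The authors deposited RPKM per gene and library, per the file headers, and other values, namely the positions of peaks without a height, in 1 list per mark and arm, called against that arm's input per the file names. The submitters' processing notes name STAR 2.6.1c, Subread, MACS2, DiffBind, HOMER, Picard, FastQC, bcl2fastq and the build mm10, without roles. Thresholds of peak calling, the annotation release, the use of strand and how samples were merged are not stated in those sources.

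Multiplied by gene length plus 1 base, 100% of RPKM values above 0 were whole multiples of 1 read (tolerance 0.001), and these reads were used for depth, the filter and voom. The 37 genes of chrMT were left out. A filter of 10 reads in 3 or more libraries came before limma 3.58.1 (trend, two-sided, no block) in R 4.3.3 on log2(RPKM + 0.1), which understates changes of low genes, with Benjamini-Hochberg adjustment over all genes tested. No library was a copy of another (chi-square per gene between replicates 6.18 to 57.7).

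The 8 genes, the 7 pathway and 8 marker lists and the naming rule were chosen with earlier results of these data known. Named were all 8 genes, up to 4 called members per pathway list (or the most abundant), markers, and the 3 nearest profiles of the 2 most changed genes among genes with at least 1 CPM in the higher arm. Peaks (overlap of at least 1 bp) were compared in Python 3.11.15 with 22019 protein-coding genes as background. Figures used matplotlib 3.10.9.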

Additional observations from a re-analysis of the deposited data

How the results depend on the processing

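Of 104 values of the 7 tested genes under other settings, 103 kept their direction and their side of the threshold. The exception was Slc20a2, at -0.11 without DMSO replicate 1 (-0.11 to 0.17 without 1 library). The calls of Phospho1, Smpd3 and Alpl held under every setting run: other pseudocounts, filters, median-of-ratios scaling, voom, the replicate block, protein-coding genes only and without any 1 library (adjusted p at most 0.00204, 0.00603 and 0.0165). Enpp1 could be tested only with no filter. The quasi-likelihood count test was not run because the values are RPKM.

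The count of all changed genes (1001, 540 higher and 461 lower) was 628 with no filter (355 and 273), and without 1 library it ranged from 309 to 1003 (190 to 539 and 93 to 464); the cause was not tested. Called pathway genes numbered 7 to 11 higher and 0 to 2 lower without 1 library; the 1 lower became 0 with no filter and 2 with the replicate block. Same-numbered libraries share only a number: deviations correlated at 0.41, 0.0781 and 0.0561, EPZ6438 replicate 2 correlated best with DMSO replicate 3 (0.331), and the block gave 1051 calls and ended only the call of Mepe (adjusted p = 0.0728) among the named genes.

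The ratio of pro-mineralization to inhibitor levels was 14.8 in EPZ6438 and 7.53 in DMSO with geometric means, which weigh Enpp1 the same as Ank. It was 1.74 in DMSO without Slc20a1 and Slc20a2. H3K27me3 peaks of the DMSO list numbered 13 over gene bodies only, 12 at widths of at least 400 bp and 5 without Enpp1, which left 0 in EPZ6438 (chosen after seeing the data). The EPZ6438 to DMSO ratio of H3K27me3 peaks was 0.231 over gene bodies and 0 without Enpp1. For H3K4me3 it was 2.33 with peaks of at least 400 bp, where DMSO had 3, and 2.02 in base pairs. Genes with a DMSO H3K27me3 peak at an end numbered 0 within 500 bp and 2 within 2 kb.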

Other observations

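Inside Enpp1, 46606 to 46865 bases from its start site, the same stretch was listed for both marks. The H3K27me3 peaks there were 188 bp wide in EPZ6438 (chr10:24665308-24665495) and 260 bp in DMSO (chr10:24665294-24665553). An H3K4me3 peak of 178 bp in DMSO (chr10:24665309-24665486) lay inside both, and it was the only H3K4me3 peak of either list over Enpp1 plus 10 kb.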
